A study of Mus musculus with 4 samples.

Results

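Nesprins, SUN proteins and lamins join the cell nucleus to the cytoskeleton, and their transcripts were compared between invariant natural killer T (iNKT) cells of CD4-Vα14Tg and wild-type (WT) mice. The set was 7 genes: the nesprin genes Syne1 and Syne2, the SUN genes Sun1 and Sun2, and the lamin genes Lmna, Lmnb1 and Lmnb2. It was chosen by gene name, with the CD4-Vα14Tg against WT difference of Syne1 on these same arrays already known, so the values of that comparison are given here as a description. Of the 7 genes, 6 had at least 1 probe set annotated to them alone, out of 22180 such genes on the array. These 6 held 65 probe sets, of which 59 belonged to Syne1. The 1 probe set annotated to Syne2 also carries the name of a microRNA gene, so Syne2 was not analysed here.

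RNA of iNKT cells was hybridised to 4 Affymetrix whole-transcript arrays, 2 for each genotype. In CD4-Vα14Tg mice the CD4 promoter drives a transgene for the Vα14 chain of the T cell receptor, the chain that defines iNKT cells, and the WT mice served as controls. The labels say that RNA came from frozen tissue, and they name neither the organ, the sorting gate, the age of the mice nor whether RNA was pooled. Nothing in the labels says that the arrays of a group came from separate mice, so their spread may be partly technical. Values are on the log2 scale after RMA, a method that corrects background, equalises the distributions of the arrays and summarises the probes of a set. A difference of 1 is therefore a 2-fold difference. A value is not a number of molecules, so a higher level at one probe set than at another is not read as more RNA. Levels served only to filter, to choose 1 probe set per gene and to form sums over marker lists.

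Nesprins are long proteins built of spectrin repeats that sit in the outer nuclear membrane by a C-terminal KASH domain. In the space between the nuclear membranes that domain binds the SUN proteins, which cross the inner membrane and contact the lamina, the mesh of lamins beneath it. The whole assembly, called the LINC complex, passes force to the nucleus and positions it in migrating lymphocytes, whose nuclei must deform to cross narrow gaps. Nesprin-1, the product of Syne1, also exists as short isoforms made from internal starts of the gene.

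The RefSeq windows before the annotated starts of Syne1 are shown because its 59 probe sets lie along a gene with several starts, and that of Sun2 because its 2 probe sets read differently. Each is the 250 bases upstream of a start, 5′ to 3′ on the gene's strand, taken from RefSeq on GRCm38.p6. Syne1 lies on the minus strand of chromosome 10, and its windows are chr10:5550693-5550942, chr10:5488315-5488564 and chr10:5069064-5069313. Sun2 lies on the minus strand of chromosome 15, with its window at chr15:79742537-79742786. Capitals mark GC boxes (GGGCGG or its reverse complement CCGCCC) and E-boxes (CANNTG, which reads alike on both strands).
Syne1 window 1: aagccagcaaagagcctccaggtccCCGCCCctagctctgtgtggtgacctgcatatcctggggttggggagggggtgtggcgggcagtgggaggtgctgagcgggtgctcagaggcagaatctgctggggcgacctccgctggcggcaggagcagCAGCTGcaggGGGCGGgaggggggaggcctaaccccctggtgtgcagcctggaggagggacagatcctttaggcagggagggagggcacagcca
Syne1 window 2: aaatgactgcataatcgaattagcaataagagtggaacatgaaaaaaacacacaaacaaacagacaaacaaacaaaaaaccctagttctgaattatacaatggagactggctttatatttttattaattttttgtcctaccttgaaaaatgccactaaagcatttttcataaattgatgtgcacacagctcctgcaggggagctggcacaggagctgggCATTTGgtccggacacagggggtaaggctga
Syne1 window 3: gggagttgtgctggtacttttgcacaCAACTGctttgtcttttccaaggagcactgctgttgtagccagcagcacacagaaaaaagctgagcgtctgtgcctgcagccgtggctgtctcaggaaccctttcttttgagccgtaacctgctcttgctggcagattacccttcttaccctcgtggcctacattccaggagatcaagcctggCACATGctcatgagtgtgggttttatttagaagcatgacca
Sun2 window: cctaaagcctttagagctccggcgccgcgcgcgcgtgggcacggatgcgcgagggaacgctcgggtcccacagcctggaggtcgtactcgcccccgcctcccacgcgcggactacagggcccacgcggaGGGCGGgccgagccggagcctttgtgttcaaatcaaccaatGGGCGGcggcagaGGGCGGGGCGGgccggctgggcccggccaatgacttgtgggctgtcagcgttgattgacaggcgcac
The first Syne1 window held 2 GC boxes and 1 E-box in 68.0% G and C, the second held 1 E-box in 38.8%, and the third 2 E-boxes in 50.8%. The Sun2 window held 4 GC boxes, some of them overlapping each other, and 0 E-boxes in 70.8% G and C. No GC box overlapped an E-box in these windows. A GC box stood in 32.7% and an E-box in 66.2% of all 32851 windows of that length. The arrays do not show which start was used.

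Syne1 was higher in CD4-Vα14Tg cells at every one of its 59 probe sets. At probe set 17238922, the one with the highest mean and therefore the one that stands for the gene, it read 10.74 on both CD4-Vα14Tg arrays and 8.18 and 8.51 on WT replicates 1 and 2. Both CD4-Vα14Tg arrays lay above both WT arrays. The group means were 10.74 and 8.34 ± 0.23 (SD, n = 2), a difference of 2.40 with a moderated standard error of 0.14, or 5.26-fold. Because each array was made from bulk RNA, more cells with Syne1 and more Syne1 RNA per cell cannot be told apart.

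In the fit across all 13602 genes tested, 1 of the 6 genes of the set, Syne1, was called higher in CD4-Vα14Tg cells by limma at an adjusted p under 0.05, where 0.61% of all genes were. None of the 6 was called lower, where 1.34% of all genes were, and 0 of the 5 besides Syne1 had an unadjusted p under 0.05. For 3 of the 6 (Syne1, Sun1 and Lmnb1) both CD4-Vα14Tg arrays were above both WT arrays, where 39.1% of all genes had groups apart in either direction. Syne1 was in view when the set was drawn up, so nothing is read from its call. In the fit across 14351 probe sets, all 59 of Syne1 were called higher (1.16% of all probe sets were) and 1 of the other 6, the second one of Sun2, was called lower (1.71% were). Arrays of the groups did not overlap at 62 of the 65 probe sets, where 39.8% of all probe sets did not. Of these 62, 59 were those of Syne1, and besides Syne1 it was 3 of 6. Probe sets of one gene read the same RNA and are not replicates of the genotype. The adjustment over probe sets counted each of the 59 singly, which eases the threshold for the other probe sets, that of Sun2 included.

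The 59 Syne1 probe sets make it the gene with the most on this array, the next having 15, and 35.3% of all probe sets called higher were those of Syne1. Their WT values ran from 2.84 to 8.51 and their CD4-Vα14Tg values from 4.77 to 10.75. The median difference between the groups was 2.41, or 5.32-fold, with quartiles at 2.13 and 2.57 and extremes at 0.71 and 3.04. In 46 of the 59 the difference lay between 2 and 3, and in 12 it was below 2. The lower of the CD4-Vα14Tg values exceeded the higher of the WT values by 0.54 at the least and by 2.15 in the median probe set. The plot of Syne1 values by probe set shows the resulting pair of parallel profiles.

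**Figure D1:**
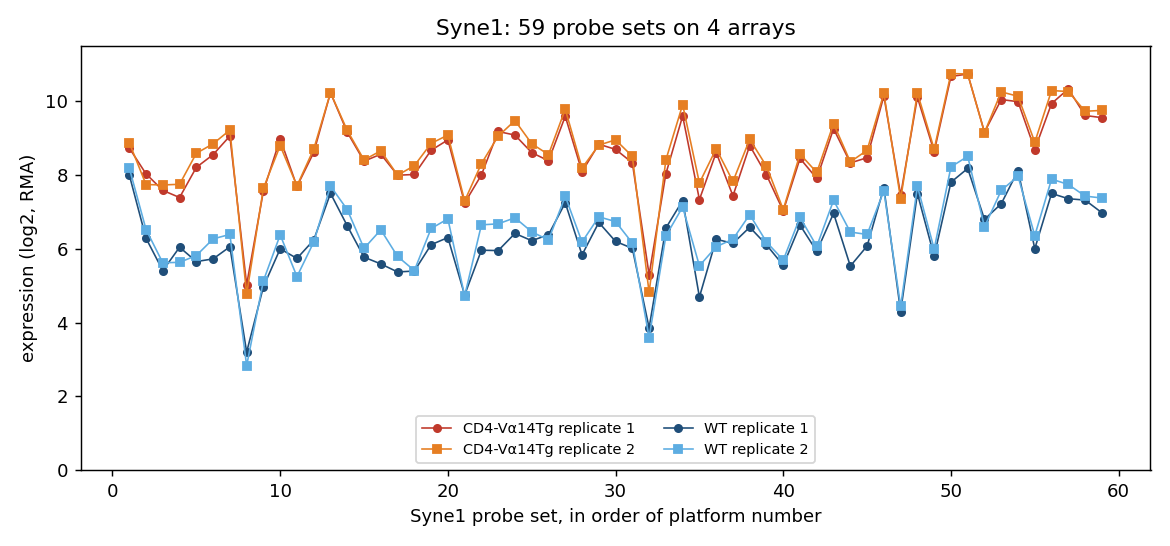
Log2 expression (y axis) at the 59 Syne1 probe sets in order of their platform numbers (x axis), with 1 line for each of the 2 CD4-Vα14Tg and 2 WT arrays. The CD4-Vα14Tg lines lie above the WT lines at all 59 probe sets, and the gap is narrowest at the first, where the difference is 0.71.

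The annotation gives no positions inside a gene, so the probe sets were followed in the order of their platform numbers. For neighbouring genes of the minus strand these numbers rose with the start coordinate in 99.8% of 8194 pairs, and for the plus strand in 99.8% of 8272. If the same order holds inside Syne1, low numbers lie towards the 3′ end of the gene and high numbers towards its first start; this was not tested. Over consecutive blocks of 10 probe sets the median difference was 2.35, 2.45, 2.35, 2.05 and 2.46, and it was 2.46 in the last 9. The fourth block, probe sets 31 to 40, was the lowest, with members from 1.33 to 2.53.

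The smallest difference was at the first probe set, 17238762, with 8.73 and 8.88 on the CD4-Vα14Tg arrays against 8.01 and 8.19 on the WT arrays. All 4 values lay above the 40th percentiles of the arrays, 4.65 to 4.69. Why the difference was smaller at this probe set was not tested. Probe set 17238762 also stood apart in number from the rest, which form a close run from 17238824 to 17238938. The first of that run, 17238824, read 8.03 and 7.74 against 6.29 and 6.52, a difference of 1.48. Differences under 1.5 were found at 5 probe sets, the other 3 being 17238884, 17238894 and 17238900 of the fourth block, with 1.33, 1.43 and 1.42. At the other extreme stood 17238914, the 47th in number, with 7.46 and 7.35 against 4.30 and 4.44, a difference of 3.04. This was the only probe set above 3, and its WT values fell short of the 40th percentile that served as the filter, as they did at 17238836 and 17238884. These 3 entered the fit through the CD4-Vα14Tg arrays alone, and their differences are set against background.

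The variation along Syne1 recurred between arrays. Taking replicate 1 arrays and replicate 2 arrays as separate pairs, the CD4-Vα14Tg minus WT difference had a median of 2.44 in the first pair and 2.32 in the second. It ran from 0.73 to 3.23 and from 0.68 to 2.91. Across the 59 probe sets the differences of these pairs, which share no array, had a correlation of 0.76, and with the WT arrays exchanged it was 0.70. Without the first probe set the correlations were 0.70 and 0.63 over 58. They describe probe sets that share a gene and each probe set's own response, not independent points. Within a genotype the replicates also differed in one direction along most of the gene. WT replicate 2 was above WT replicate 1 at 46 of the 59 probe sets, by a median of 0.21, and CD4-Vα14Tg replicate 2 above replicate 1 at 49, by 0.13. The largest gap between WT replicates was 0.93, so single probe sets carry an error that the median of 59 does not show.

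**Figure D2:**
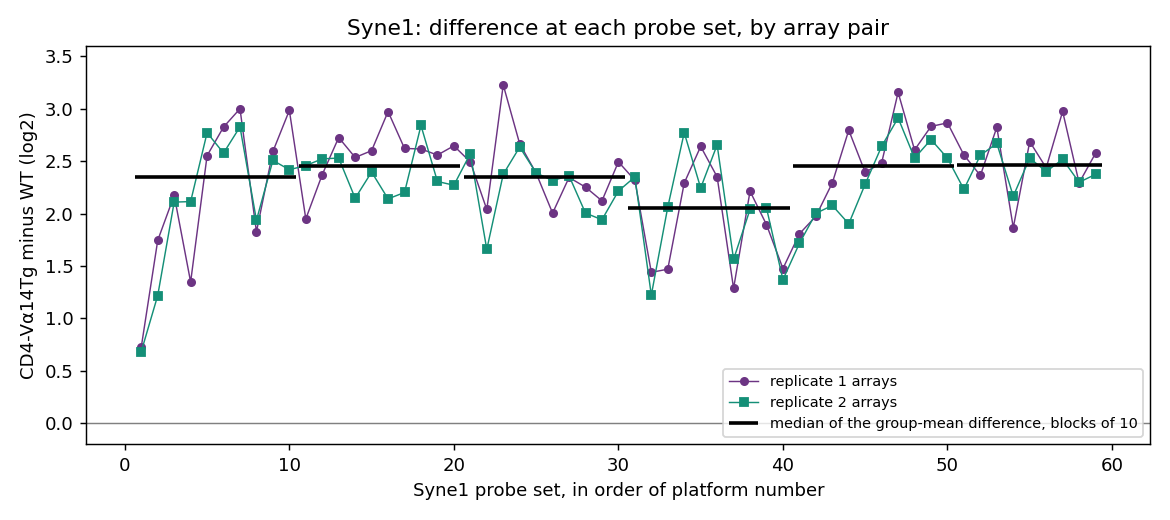
CD4-Vα14Tg minus WT difference on the log2 scale (y axis) at each Syne1 probe set in number order (x axis), for the replicate 1 arrays and the replicate 2 arrays separately; black bars are medians of the group-mean difference over blocks of 10 probe sets (9 in the last). Both pairs start near 0.7, stay above 0 throughout and dip together in the fourth block, where the median is 2.05.

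The genes whose values followed Syne1 most closely over the 4 arrays were sought by the root mean square difference between each gene's centred values and those of probe set 17238922. The nearest was Moxd1, a monooxygenase-like gene, at 0.096, with 6.75 and 6.70 in CD4-Vα14Tg against 4.17 and 4.27 in WT. These WT values lay below the 40th percentiles of their arrays, so Moxd1 was tested through the CD4-Vα14Tg arrays alone and its difference and rank are set against background. Irak3, an inhibitor of Toll-like receptor signalling, followed at 0.14, with 8.44 and 8.27 against 5.68 and 5.82. Igfbp4, which encodes an insulin-like growth factor binding protein, was at 0.24, and Itga4, the integrin α4 chain, at 0.25. Themis, a thymocyte selection gene, was at 0.37 and the uncharacterised gene Gm19765 at 0.41. All 6 were higher in CD4-Vα14Tg cells, with differences from 1.61 to 2.61. With 4 arrays in 2 groups, likeness in this measure mostly means a similar size of difference.

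**Figure D3:**
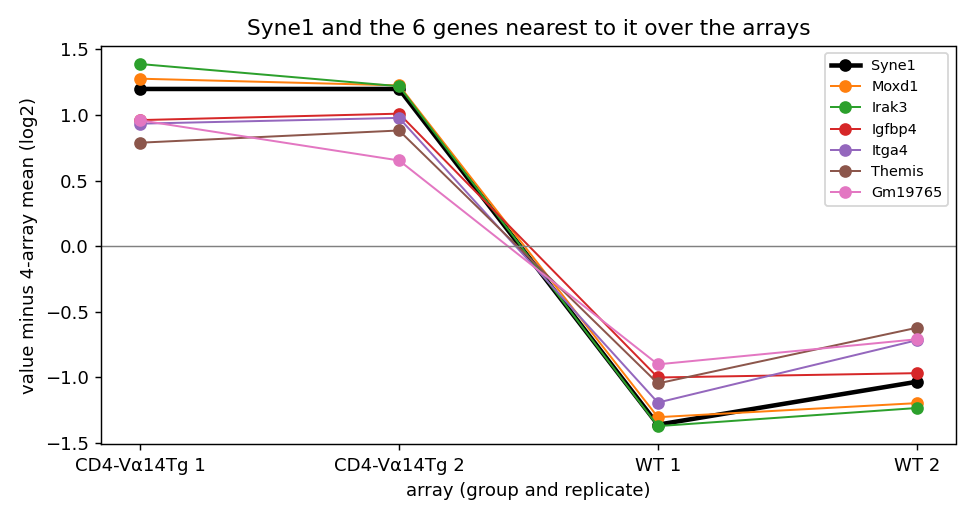
Values of Syne1 (black, probe set 17238922) and the 6 genes nearest to it, each minus its own mean over the 4 arrays on the log2 scale (y axis), on each array (x axis). All 7 lines are above 0 on both CD4-Vα14Tg arrays and below 0 on both WT arrays.

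Some genes from marker lists for other cell states also differed between the groups, in either direction. Which cells in the bulk RNA carried these transcripts was not tested. Of all genes tested, limma called 0.61% higher and 1.34% lower, and 11.7% had an unadjusted p under 0.05. Of 9 tested CD8 and naive T cell markers, 4 were higher by limma and 0 lower, and the summed linear signal of the 11 markers with a probe set was 9531 to 10087 on the CD4-Vα14Tg arrays against 6365 to 7537 in WT. Those higher were Igfbp4 (difference 1.97), Ccr7 (1.55) and S1pr1 (1.57), the latter pair being receptors that guide T cells through lymph nodes, and Lef1 (0.84), a Wnt pathway transcription factor. Not called were Actn1 (0.45), Klf2 (0.21), Il7r (0.039), Satb1 (-0.0225) and Cd8b1 (-0.085). Of the CD8 chains, Cd8a lay below the 40th percentile on all arrays, while Cd8b1 lay above it on all, with 5.24 and 5.52 against 5.40 and 5.52. Of 7 tested immature thymocyte markers, Ccr9 (7.11 and 7.20 against 5.50 and 5.81), Themis (difference 1.67) and Sox4 (0.94) were higher and Aqp11 (-1.04) was lower, with sums of 1009.5 to 1027.9 against 612.0 to 671.5 over 11 markers, while Rag2, Dntt, Cd24a and Arpp21 lay below that percentile throughout. Of 10 tested NK and innate lymphoid markers, 7 were lower and 0 higher (Gzma, Klrd1, Klrb1c, Fcer1g, Klrk1, Prf1 and Ncr1), with sums of 1624 to 1661 against 4693 to 4865 over 11 markers. Gzma differed by -3.24 and Klrd1 by -2.23, while Ncr1, at 4.194 and 4.203 against 5.052 and 5.144, was below the 40th percentile on both CD4-Vα14Tg arrays and was tested through the WT arrays alone. In limma 5 of the 9 CD8 and naive, 5 of the 7 immature thymocyte and 9 of the 10 NK markers had an unadjusted p under 0.05. Without 1 array the calls numbered 3 or 4 in the first list, 2 or 3 in the second, lowest without WT replicate 2, and 5 or 7 in the NK list. The part of these markers in the Syne1 difference was not tested.

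The identity markers of T and iNKT cells were present on all arrays, with all 15 that had a probe set passing the filter. Zbtb16, the gene of the iNKT lineage factor PLZF, read 11.27 and 11.39 against 11.13 and 11.08. Among the 15, 1 was lower (Il2rb, -0.80) and 0 higher, and 2 had an unadjusted p under 0.05, which 11.7% of all genes tested had. Slamf6 was close to the threshold, higher by 0.73 without overlap at a limma adjusted p of 0.0603. Calls in this list changed with the run. They were 1 higher and 0 lower with quantile normalization, 1 higher and 1 lower with the 60th percentile as filter, and 0 with no filter. For other cell types, 7 of 11 B cell and plasma cell markers, 11 of 17 myeloid markers, 3 of 7 erythroid and platelet markers and 5 of 13 stromal and epithelial markers lay below the 40th percentile on all arrays. By limma the myeloid gene Itgam was higher (0.67) and 0 of the others were called, while 2 of 4 tested myeloid, 2 of 3 B cell, 0 of 4 erythroid and platelet and 1 of 8 stromal markers had an unadjusted p under 0.05. Summed linear signals were higher without overlap for the stromal list, 954.1 to 959.8 against 753.7 to 800.6, and for the erythroid and platelet list, 378.6 to 400.2 against 355.3 to 357.3. They were 1272 to 1373 against 1342 to 1458 for B cell markers and 464.4 to 465.7 against 465.2 to 488.5 for myeloid markers, with overlap. The brightest member weighs most in such a sum. In the stromal list that was Pecam1, with 9.13 and 9.13 against 8.69 and 8.615. In the erythroid and platelet list it was Tfrc, with 7.71 and 7.59 against 7.37 and 7.525. Pecam1 and Tfrc made up most of the gap in their sums. The difference was positive for 7 of 8 tested stromal markers and for 2 of 4 tested erythroid and platelet markers, beside 5977 of all 13602 genes tested. In the B cell list the brightest was Ighm, with 10.07 and 10.19 against 10.125 and 10.31. Cd22 and Cd79b of that list differed in opposite directions, by -0.64 and 0.48, each without overlap and neither called. The part of these markers in the results was not tested. The calls of Il2rb and Itgam were lost whichever 1 of the 4 arrays was left out, with differences from -0.92 to -0.68 and from 0.60 to 0.74.

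The SUN genes bind nesprins from the inner nuclear membrane. Sun1 read 7.17 and 7.08 on the CD4-Vα14Tg arrays and 6.82 and 7.02 on the WT arrays. The groups did not overlap, but the gap between the nearest arrays was smaller than the distance between the WT arrays. The difference was 0.20 (95% interval -0.10 to 0.50) and was not called.

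Sun2 had 2 probe sets, which disagreed. Probe set 17319299, the brighter one that stood for the gene, read 9.11 and 9.16 in CD4-Vα14Tg against 9.22 and 8.996 in WT. These groups overlapped, with a difference of 0.025 (95% interval -0.28 to 0.33). Probe set 17313039 read 6.05 and 6.08 against 6.94 and 7.24, so both CD4-Vα14Tg arrays were below both WT arrays, by 1.03 in the means with a moderated standard error of 0.14, or 2.04-fold. Without WT replicate 2 this call was lost, at a difference of -0.88 and a limma adjusted p of 0.0516, against 0.0136 to 0.0474 without any other array.

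The 2 Sun2 probe sets also stood in different runs of platform numbers. Probe set 17319299 lay between Josd1 and Dnal4, and of its 5 neighbours on each side the 8 with a known strand were all on the minus strand, as Sun2 is. Probe set 17313039 lay between Gtpbp1 and Gm16576, and the 8 of its 10 neighbours with a known strand were all on the plus strand. The annotation does not say which strand a probe set reads, so whether 17313039 measures Sun2 RNA or RNA from the opposite strand was not tested. Gm16576, the next in number, read 5.56 and 5.09 against 5.33 and 5.60, with overlapping groups. A statement on Sun2 therefore depends on the probe set chosen.

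The lamin genes showed no call. Lmnb1 and Lmnb2 encode B-type lamins, which stay tied to the membrane by a lipid anchor, and Lmna encodes lamins A and C, which stiffen the nucleus. Lmnb1 read 8.65 and 8.59 in CD4-Vα14Tg against 8.43 and 8.53 in WT, with groups that did not overlap and a difference of 0.14 (95% interval -0.14 to 0.42). Lmnb2 read 5.89 and 5.97 against 6.17 and 5.89, with overlapping groups and a difference of -0.10 (95% interval -0.43 to 0.22). Lmna read 5.98 and 5.36 against 5.99 and 5.66, a difference of -0.15 (95% interval -0.66 to 0.36). The distance between the CD4-Vα14Tg arrays at Lmna was several times the difference between the groups, and its sign turned without CD4-Vα14Tg replicate 2 or without WT replicate 1. The 5 genes besides Syne1 thus had differences from -0.15 to 0.20. Their intervals leave room for moderate differences in either direction, and their upper ends, at most 0.50, lie below the difference of Syne1.

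**Figure D4:**
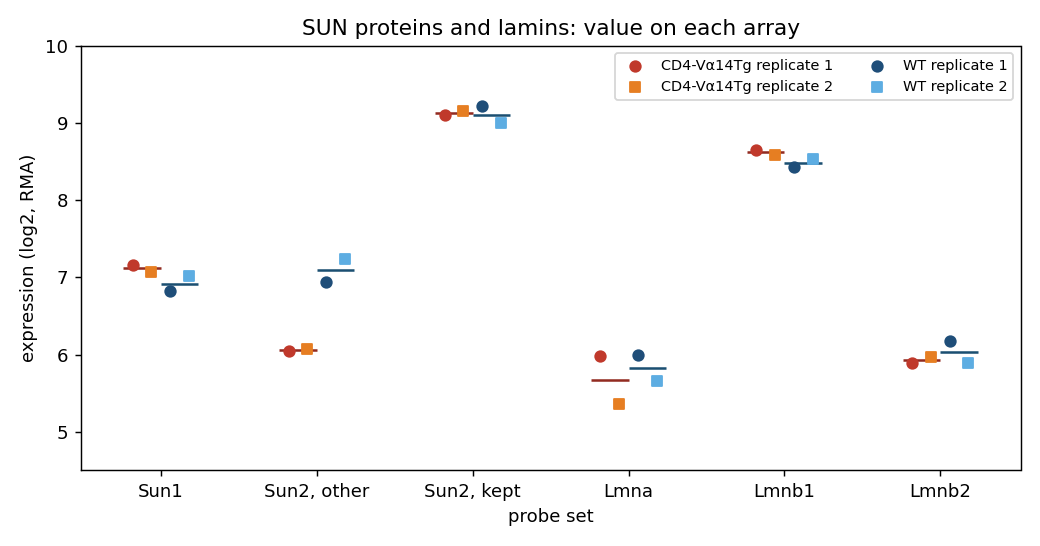
Log2 expression (y axis, starting at 4.5) of the SUN and lamin probe sets (x axis) on each array; points are arrays and short lines are group means. The second Sun2 probe set is the only one where the groups stand clearly apart, 6.06 against 7.09, while the kept Sun2 probe set is 9.13 against 9.11.

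Partners of these proteins were taken from 5 lists, to be read beside all 13602 genes tested, of which 83 were called higher, 182 lower and 1586 (11.7%) had an unadjusted p under 0.05, with a median difference of -0.02. Of 20 tested genes of the LINC complex and nuclear envelope, 0 were called in either direction by limma, 2 had an unadjusted p under 0.05, and the median difference was -0.008. The largest in size of moderated t was Nrm, the gene of the inner membrane protein nurim, with 7.78 and 7.82 against 7.43 and 7.35 (difference 0.41, limma adjusted p = 0.180). Syne3, which encodes nesprin-3, the nesprin that binds plectin, read 5.61 and 5.48 against 5.85 and 5.87 (difference -0.31, limma adjusted p = 0.351). Spag4, a SUN domain gene, and Lrmp, a KASH domain gene of lymphocytes, differed by -0.29 and -0.19. Syne4, Sun3, Sun5, Kash5 and Mlip did not pass the filter on dim probe sets.

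Of 7 genes listed under prelamin processing, some of which attach or trim the farnesyl anchor, 0 were called, also at an unadjusted p under 0.05, with a median of -0.029. Fnta and Fntb, the subunits of farnesyltransferase, differed by -0.18 and 0.16, Icmt, which methylates the anchored end, by -0.20, and Narf, whose product binds prelamin A, by 0.28. Single arrays moved these values: without WT replicate 1 Narf was 0.027, and without CD4-Vα14Tg replicate 1 Icmt was -0.032. Of 26 motor, actin and microtubule partners, 0 were called by limma and 2 had an unadjusted p under 0.05, with a median of -0.044. Among them were Flna, the actin cross-linker filamin A (difference 0.45, limma adjusted p = 0.143), Tubb5, a β-tubulin (0.28), Nde1, a dynein regulator (-0.36), and Klc1, a kinesin light chain (-0.27). Nde1 ran from -0.55 without WT replicate 1 to -0.17 without WT replicate 2, and Tubb5 was 0.14 with the median of its probe sets.

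Spectrin repeat genes share the fold from which nesprins are built. Of 13 tested, Actn2, the muscle form of the actin cross-linker α-actinin, was lower, with 5.64 and 5.58 against 6.55 and 6.73, a difference of -1.03 (limma adjusted p = 0.010), and 0 were higher. The groups did not overlap, and the call held under each alternative run. Actn1, another α-actinin, differed by 0.45, Trio by -0.35, and the spectrin genes Sptbn1 and Sptan1 by 0.34 and 0.20, none of them called, and 4 of the 13 had an unadjusted p under 0.05. The list median was 0.050. Of 24 tested nucleoporins, 0 were called by limma and 1 had an unadjusted p under 0.05, with a median of 0.010. Pom121, a membrane anchor of the pore, differed by -0.28, Nup210l by 0.22, Nupl2 by -0.24 and Sec13 by 0.18. Over the 5 lists the difference largest in size was that of Actn2, as the plot of differences by list shows.

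**Figure D5:**
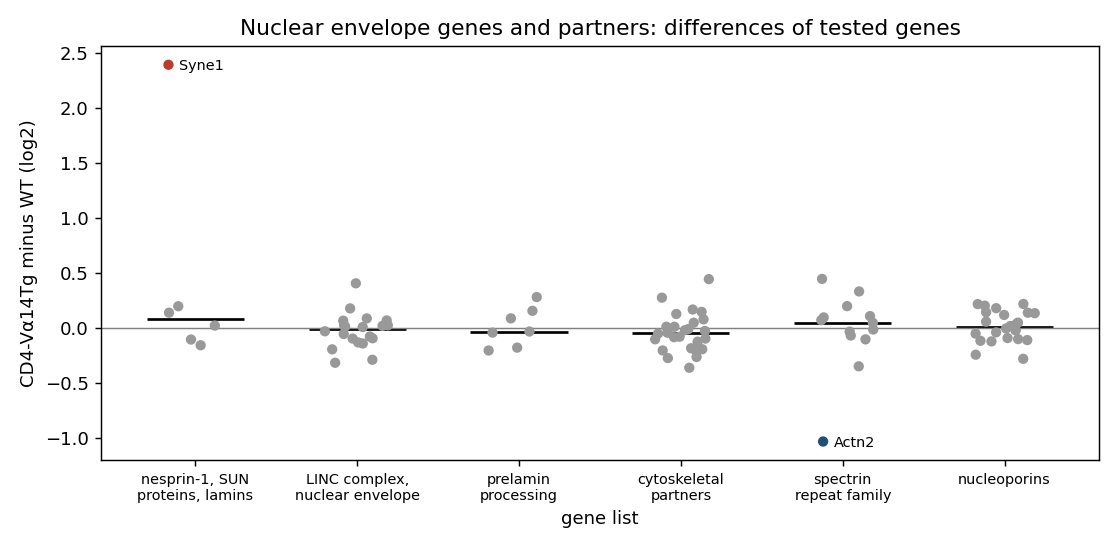
CD4-Vα14Tg minus WT difference on the log2 scale (y axis) of each tested gene in the set and in the 5 partner lists (x axis); points are genes, black lines are list medians, red and blue mark genes called higher and lower by limma. Syne1 at 2.40 and Actn2 at -1.03 are the only coloured points.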

How the data were processed

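Expression was measured on 4 arrays, 2 per genotype, with groups read from the sample titles. The authors deposited 1 log2 value per probe set and array; per the submitters' processing notes these were made with RMA and Affymetrix Power Tools. A genome build is not given in the sources used here. Precision is limited by the number of arrays, and quantile normalization within RMA hides any shift in total RNA.

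The platform annotation supplied gene names, and 23521 of 41345 probe sets had 1 symbol. For a gene with several, the one with the highest mean was kept. Genes at or above the 40th percentile of these probe sets on at least 2 arrays were tested (13602), and all such probe sets were also tested one by one (14351). limma 3.58.1 in R 4.3.3 (lmFit, eBayes, two-sided, CD4-Vα14Tg minus WT) gave p-values adjusted by Benjamini-Hochberg over all features, with 0.05 as threshold. The fits were tested on simulated data with independent errors, which do not cover probe sets or arrays that vary together. Plots used matplotlib 3.10.9. The named genes were all members, the called genes of each list, up to 4 others of each partner list by moderated t, and the 6 genes nearest to Syne1. Members and lists were chosen with earlier results of these data known.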

Additional observations from a re-analysis of the deposited data

How the results depend on the processing

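The Syne1 difference kept its sign and its call under each alternative run, from 2.23 to 2.56 without 1 array, and the Syne1 median over probe sets stayed between 2.23 and 2.52. Of its 59 probe sets, 57 or 58 were called without 1 array, and 58 with no filter. Sun1 and Lmnb1 kept their sign and stayed uncalled, but were 0.0995 and 0.091 without WT replicate 1, against 0.20 and 0.14 with all arrays, and 0.30 and 0.19 without WT replicate 2. Sun2 was -0.50 when the median of its probe sets was taken, and ran from -0.087 to 0.14 without 1 array, Lmna from -0.46 to 0.15 and Lmnb2 from -0.24 to 0.041; none of these was called. The count of genes called, 265, fell to 169 and 166 when CD4-Vα14Tg replicate 1 or 2 was left out, and to 221 and 166 for WT replicate 1 or 2; that of probe sets, 413, fell to 257 and 263, and to 305 and 230. With fewer arrays the spread rests on less data.

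With the replicate number as a block, 674 genes and 837 probe sets were called, and the Syne1 difference was 2.40 as before. Same-numbered arrays deviated together with a correlation of 0.26 over 13602 genes, but with 2 pairs and no label that ties them, the numbers are not taken to pair the arrays. Without 1 array Fntb ran from -0.13 to 0.44, Narf from 0.027 to 0.54 and Icmt from -0.37 to -0.032. The alternatives for Syne1 probe set counts, the second Sun2 probe set, the lists and their named genes were chosen after seeing the data. The values of Lmna and Lmnb2, from 5.36 to 6.17, lie not far above the array medians of 5.04 to 5.07.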
